A study of Mus musculus with 7 samples.

Results

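The 10 genes described here, Hopx, Ptprz1, Tnc, Fam107a, Lifr, Il6st, Moxd1, Pdgfd, Acsbg1 and Stat3, are genes used to recognise basal radial glia in species with a folded cortex, or to describe the signals those cells use. They were taken by name, 10 of the 19938 genes that the arrays measured with a probe set of 1 gene symbol, and each had exactly 1 such probe set. Their levels were compared between embryonic mouse cortical cells in which Trnp1 was knocked down and control cells. The cells came from C57BL/6 embryos whose cortices received the construct and a green fluorescent protein by electroporation on embryonic day 13. Fluorescent cells were sorted 24 h later, so all embryos were at day 14 and every sample, control samples included, holds electroporated cells. There were 3 Trnp1 knockdown samples and 4 control samples (genotype WT), with 1 Affymetrix array each. The control construct, the promoter of the constructs and the number of embryos behind each sample are not given in the sources used here. The labels call the samples biological replicates without naming litters or cultures, so the p-values measure the spread between these samples.

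Radial glia are the stem cells of the developing cortex. Apical radial glia keep contact with the ventricle, whereas basal radial glia lie away from it, keep a process towards the outer surface and are abundant in species such as human and ferret but rare in mouse. In human fetal cortex basal radial glia are known for high HOPX, PTPRZ1, TNC and FAM107A and for signalling through the leukemia inhibitory factor (LIF) receptor, its partner gp130 (the product of Il6st) and STAT3. Trnp1 encodes a protein of progenitor nuclei, which the study's title links to growth and folding of the cortex by way of what radial glia become. The comparison therefore asks whether transcripts of these genes differ in mouse cells 1 day after the knockdown.

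Trnp1 itself, the targeted gene, had log2 levels of 4.80, 4.85 and 4.55 in knockdown samples, against 5.07, 4.999, 5.24 and 5.22 in control samples. The highest knockdown array was below the lowest control, as the labels have it. Knockdown minus control came to -0.40 log2 units (SE 0.12), with an exact permutation p of 0.0286 (two-sided, 35 splits), the smallest this design allows. Its adjusted p over all genes was 0.825 by limma. Control replicate 4 stood apart from the other controls in its markers of other cell types. Its mean log2 level over 12 microglia markers was 8.70, against 6.07 to 7.22 in the other controls, and over 16 endothelial and mural markers 6.16, against 4.34 to 4.52. Vascular markers were also uneven among the knockdown samples, with means of 6.64, 5.66 and 4.85. Where leaving out control replicate 4 turned a direction or moved a value named here by more than 1.5 times, the value without it is given too.

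No member differed between the groups beyond the spread of the arrays. On all 10 genes the 3 Trnp1 knockdown values overlapped the range of the 4 control values, and 0 of 10 passed limma's test at an adjusted p under 0.05 (adjusted p between 0.825 and 0.98), where 0% of all genes passed. At an unadjusted p under 0.05 it was again 0 of 10, beside 5.81% of all genes (439 higher and 719 lower in knockdown samples, or 183 and 1507 with the array medians set equal), and the groups did not overlap for 5.67% of all genes. The mean was higher in knockdown samples for 6 members (Ptprz1, Tnc, Lifr, Stat3, Fam107a and Acsbg1) and lower for 4 (Il6st, Hopx, Pdgfd and Moxd1), where 49.8% of all genes were higher and 50.2% lower. The median log2 difference, knockdown minus control, was 0.072 over the members and -0.001 over all genes (0.023 over the members without control replicate 4). With the array medians set equal it was -0.034 over the members and -0.107 over all genes. In bulk samples such as these, fewer cells of a type and less RNA per cell cannot be told apart.

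**Figure D1:**
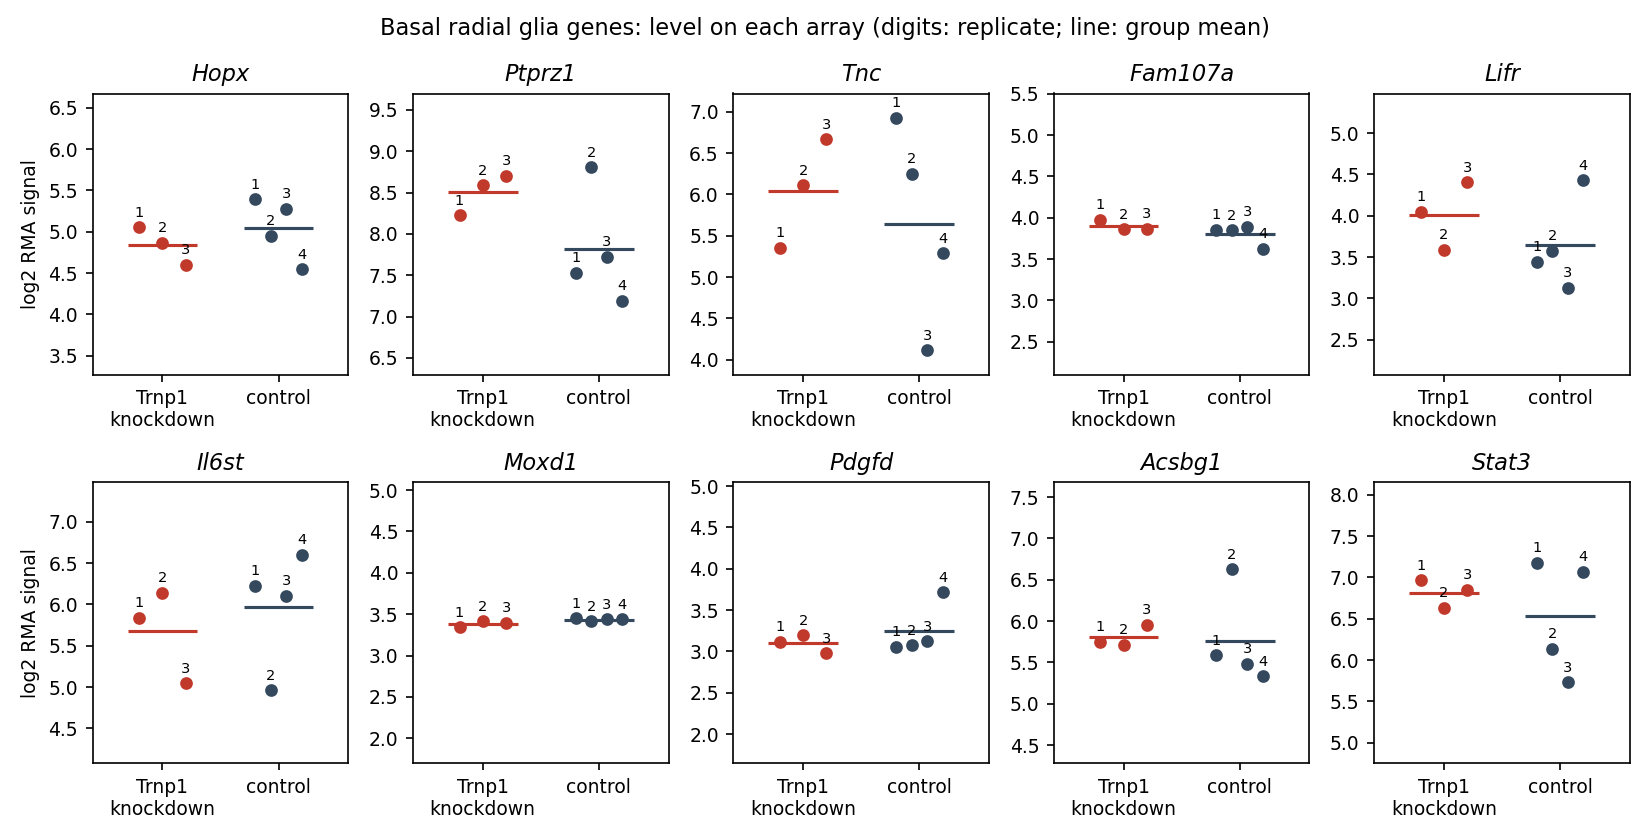
Level of each of the 10 genes on every array, as the log2 RMA signal on the vertical axis of its own panel, which spans the same number of log2 units in every panel. Each point is 1 array with its replicate number and each line a group mean. The Trnp1 knockdown and control points overlap in every panel, and control replicates account for the widest spreads, as in Tnc and Ptprz1.

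Among the surface and matrix genes, Ptprz1 (Entrez 19283), a receptor-type tyrosine phosphatase that binds pleiotrophin and tenascins, had the largest difference of the 10. Its log2 levels were 8.22, 8.59 and 8.70 in knockdown samples, against 7.53, 8.81, 7.72 and 7.19 in control samples. The knockdown values lay close together and above 3 of the 4 controls, but control replicate 2 was the highest array of all. The means were 8.51 ± 0.2498 (SD, n = 3) in knockdown and 7.81 ± 0.698 (SD, n = 4) in control samples, a difference of 0.69 (SE 0.37, 95% interval -0.16 to 1.55) with an adjusted p of 0.825 by limma. Of all genes, 3.31% had a larger difference in either direction. The difference was 1.02 without control replicate 2 (adjusted p = 0.939 by limma) and 0.49 without control replicate 4, the lowest array (adjusted p = 0.783). The direction was the same under every alternative run, with adjusted p between 0.621 and 0.96.

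Tnc (Entrez 21923) encodes tenascin-C, a glycoprotein of the extracellular matrix around progenitors. It had log2 levels of 5.36, 6.11 and 6.67 in knockdown samples, against 6.93, 6.25, 4.11 and 5.29 in control samples. Controls held both the highest and the lowest array and spanned 2.81 log2 units. The residual spread of Tnc was larger than that of 98.5% of genes. The difference was 0.40 (SE 0.66, 95% interval -1.14 to 1.94), which became -0.11 when control replicate 3 was left out and 0.83 when control replicate 1 was, so single controls set its direction.

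Hopx (Entrez 74318) encodes a small homeodomain protein that does not bind DNA and is the most widely used label of basal radial glia in human and ferret. Its log2 levels were 5.05, 4.87 and 4.60 in knockdown samples, against 5.40, 4.95, 5.28 and 4.55 in control samples. The lowest array was a control, replicate 4, and the other controls lay above 2 of the 3 knockdown arrays or all of them. The difference was -0.20 (SE 0.22, 95% interval -0.73 to 0.32), so that the knockdown signal was 0.87 times the control signal (0.605 to 1.25). It was -0.37 without control replicate 4 (adjusted p = 0.743 by limma) and -0.082 without knockdown replicate 3.

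Fam107a (Entrez 268709), whose product associates with actin, had log2 levels of 3.98, 3.86 and 3.87 in knockdown samples, against 3.86, 3.85, 3.89 and 3.63 in control samples. Apart from a low value in control replicate 4, the 6 other arrays lay between 3.85 and 3.98. The difference was 0.095 (SE 0.11, 95% interval -0.16 to 0.35), which became 0.035 without control replicate 4. It was -0.011 with the array medians set equal, a setting in which the median of all genes was -0.107.

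Moxd1 (Entrez 59012) encodes a copper monooxygenase related to dopamine beta-hydroxylase. It had log2 levels of 3.34, 3.41 and 3.40 in knockdown samples, against 3.45, 3.41, 3.44 and 3.44 in control samples. The arrays were nearly level, with a residual spread among the smallest of all genes (percentile 0.145). The difference was -0.052 (SE 0.089), and the values came within 0.001 log2 units of not overlapping. The probe sets of Moxd1, Fam107a, Lifr and Pdgfd were in the dimmest 33% of genes by mean signal (percentiles 19.8, 31.8, 30.8 and 12.1). Probe brightness is not a transcript amount, but RMA compresses differences of dim probe sets, so their differences may be understated.

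Acsbg1 (Entrez 94180) encodes an acyl-CoA synthetase that activates long-chain fatty acids. Its log2 levels were 5.75, 5.72 and 5.96 in knockdown samples, against 5.59, 6.63, 5.49 and 5.34 in control samples. As for Ptprz1, the knockdown values lay above 3 controls and below control replicate 2. The difference was 0.049 (SE 0.30, 95% interval -0.66 to 0.76). It was 0.34 without control replicate 2 (adjusted p = 0.939 by limma) and -0.092 without control replicate 4.

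**Figure D2:**
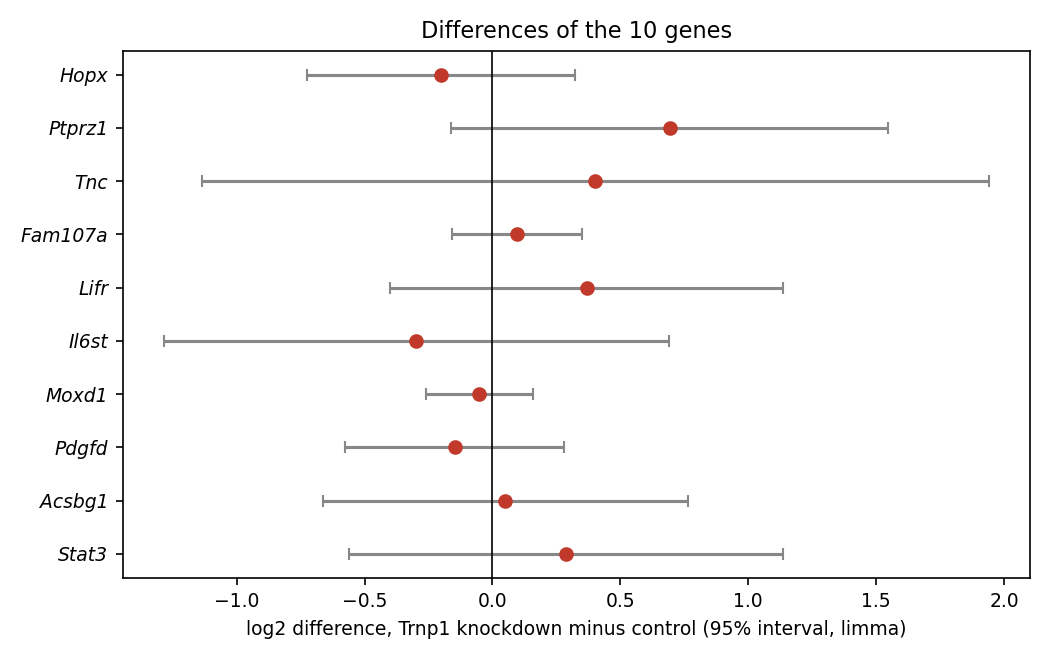
Difference of the group means for each of the 10 genes on the horizontal axis, in log2 units, Trnp1 knockdown minus control, with limma's 95% interval as a bar. All 10 intervals include 0. The interval is widest for Tnc (-1.14 to 1.94), and Ptprz1 has the largest difference (0.69).

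Pdgfd (Entrez 71785) encodes a platelet-derived growth factor, a ligand of the receptor Pdgfrb that human radial glia express. Its log2 levels were 3.12, 3.19 and 2.98 in knockdown samples, against 3.06, 3.08, 3.13 and 3.72 in control samples. All but control replicate 4 lay between 2.98 and 3.19. The difference was -0.15 (SE 0.18, 95% interval -0.58 to 0.28), and 0.011 without that array.

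Lifr and Il6st encode the receptor chains that together bind LIF, and control replicate 4 was the highest array for both. Lifr (Entrez 16880) had log2 levels of 4.05, 3.59 and 4.402 in knockdown samples, against 3.45, 3.58, 3.13 and 4.43 in control samples. The knockdown arrays lay above control replicates 1, 2 and 3 and below control replicate 4. The difference was 0.37 (SE 0.33, 95% interval -0.40 to 1.14), and 0.63 without control replicate 4 (adjusted p = 0.741 by limma) or 0.17 without knockdown replicate 3.

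Il6st (Entrez 16195), the shared signalling chain gp130, had log2 levels of 5.84, 6.14 and 5.05 in knockdown samples, against 6.23, 4.96, 6.11 and 6.599 in control samples. Both groups held 1 low array, knockdown replicate 3 and control replicate 2. The difference was -0.30 (SE 0.42, 95% interval -1.28 to 0.69), which became 0.017 with knockdown replicate 3 left out. It was -0.64 with control replicate 2 left out and -0.089 with control replicate 4 left out.

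Stat3 (Entrez 20848) is the transcription factor that this receptor activates. Its log2 levels were 6.97, 6.63 and 6.85 in knockdown samples, against 7.18, 6.14, 5.73 and 7.07 in control samples. The controls fell into 2 high and 2 low arrays, with the knockdown arrays between them. The difference was 0.29 (SE 0.36, 95% interval -0.56 to 1.14), which became 0.021 with control replicate 3 left out. Leaving out either high control raised it, to 0.50 (replicate 1) or 0.47 (replicate 4). A transcript level does not measure the phosphorylation through which Stat3 acts.

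Most of the 10 genes varied more among control than among knockdown samples. The SD was larger in control than in knockdown samples for 9 of the 10 genes (Moxd1 was the exception), beside 43.6% of all genes. Control replicate 4 enters these control SDs, and the count was not made without it. For Fam107a the other controls lay between 3.85 and 3.89 and for Pdgfd between 3.06 and 3.13, so that array set most of their control spread. For Ptprz1, Tnc, Lifr, Il6st, Acsbg1 and Stat3 the residual spread lay above the 85th percentile of all genes, and the median residual SD was 0.482 over the members and 0.234 over all genes. Control replicate 4 was the highest array for Lifr, Il6st and Pdgfd and the lowest for Hopx, Ptprz1, Fam107a and Acsbg1. That makes 7 of 10 members at an extreme in this array, beside 30.6% of all genes, whereas knockdown replicate 2 was at an extreme for 0 of 10, beside 23.3% of all genes. In control replicate 4, 10 of the 12 microglia markers were at their highest, beside 13.9% of all genes. In the same array 10 of the 23 radial glia genes were at their lowest, beside 16.7% of all genes. Control replicate 2, highest for Ptprz1 and Acsbg1 and lowest for Il6st, was highest for 8 of the 23 radial glia genes, beside 12.7% of all genes. It was lowest for 6 of the 12 microglia markers and 5 of the 16 endothelial and mural markers, beside 10.9% of all genes. The part of these cell types in the members' levels was not tested.

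**Figure D3:**
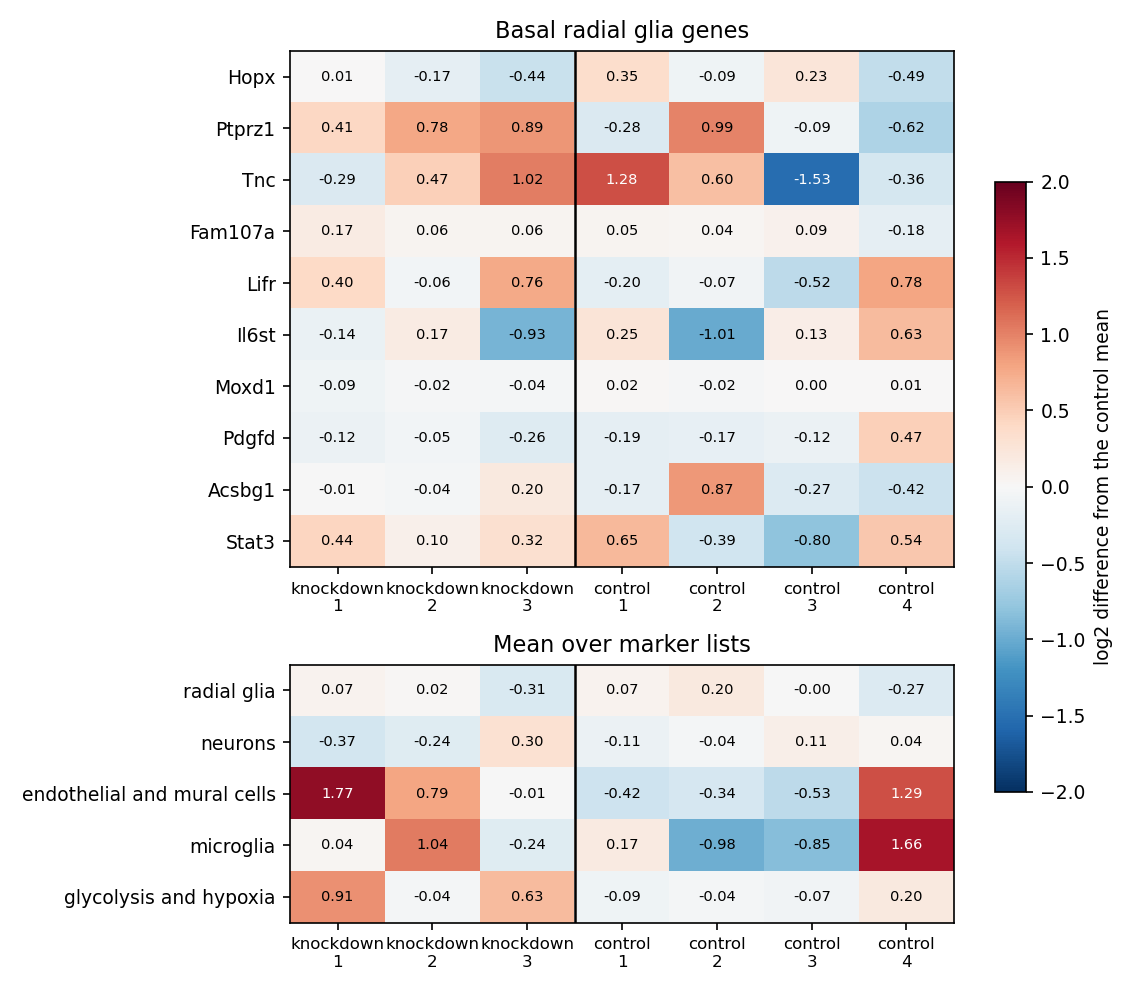
Difference of each array from the control mean in log2 units, by colour and number, for the 10 genes (above) and for the mean over 5 marker lists (below), with Trnp1 knockdown arrays left of the line and control arrays right of it. Control replicate 4 is high in Lifr, Il6st and Pdgfd and in microglia (1.66) and vascular markers (1.29), and control replicate 2 is high in Ptprz1 and Acsbg1. No knockdown column is high or low throughout the 10 genes.

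The markers place the samples in the cortex but do not single out basal radial glia. Eomes, a factor of intermediate progenitors of the dorsal cortex, was bright on every array, at 10.7, 9.86 and 10.2 in knockdown samples, against 10.5, 10.5, 10.05 and 10.2 in control samples. Over 12 intermediate progenitor genes, Eomes included, 3 were higher and 9 lower in knockdown samples (median -0.20), and 0 passed the test. At an unadjusted p under 0.05 by limma 4 were lower, beside 3.61% of all genes. They were Rasgef1b (-0.94), Penk (-0.67), Sstr2 (-0.65) and Mfng (-0.46). The mean log2 level over the 23 radial glia genes lay between 8.21 and 8.59 in knockdown samples and between 8.25 and 8.72 in control samples. Of these genes, 9 were higher and 14 lower in knockdown samples, with a median of -0.019, and 0 passed the test. Without control replicate 4 these became 7 higher and 16 lower, with a median of -0.18. At an unadjusted p under 0.05 there were 2, both lower (3.61% of all genes were lower at that level), the membrane protein gene Prom1 (-0.47, SE 0.17) and the aldolase gene Aldoc (-0.57, SE 0.22). The receptor Notch1 differed by 0.55 (SE 0.25) and the cortical factor Lhx2 by -0.43 (SE 0.20). Apical and basal radial glia share such genes, so the list does not separate them.

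Other genes described in basal radial glia or in the making of basal progenitors were read from a list of 17, all measured. Of these 8 were higher and 9 lower in knockdown samples, with a median of -0.064, and 0 passed the test over all genes. The sign of that median turned on control replicate 4: without it 9 were higher and 8 lower, with a median of 0.13, and array weights gave 0.15. At an unadjusted p under 0.05, 2 were higher, beside 2.2% of all genes. The first was the cadherin Cdh6, at 7.53, 6.98 and 7.28 in knockdown samples, against 6.51, 6.59, 6.05 and 6.33 in control samples (0.89, SE 0.18). Its groups did not overlap, as for 2.59% of all genes in this direction. The second was the oxygen sensor Egln3 (1.29, SE 0.40), at 7.09, 5.55 and 6.96 in knockdown samples, against 5.30, 5.75, 4.999 and 4.94 in control samples. It was high in the same knockdown arrays, replicates 1 and 3, in which the 23 glycolysis and hypoxia genes stood 0.91 and 0.63 above the control mean, while replicate 2 stood at -0.038. The part of hypoxia in the Egln3 difference was not tested. The growth factor receptor Fgfr3 was at 7.75, 7.17 and 7.59 in knockdown samples, against 6.6, 7.71, 6.55 and 6.26 in control samples (0.73, SE 0.35). Like Ptprz1 it was high in the knockdown arrays and in control replicate 2. Plekha7, a junction protein gene, differed by 0.26 (SE 0.23), and Itgb5, an integrin subunit of human basal radial glia, by 0.18 (SE 0.58), with its highest level in control replicate 4 (6.85). Without that array Itgb5 differed by 0.68.

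Ligands and receptors of the gp130 family were represented by 9 measured genes of 12 beside the members. In knockdown samples 4 were higher and 5 lower (median -0.043, and -0.073 without control replicate 4), and 0 passed the test or an unadjusted p under 0.05. Lif, the ligand, had log2 levels of 3.54, 3.64 and 3.22 in knockdown samples, against 3.64, 3.64, 3.49 and 3.67 in control samples. Cntfr, the receptor chain for ciliary neurotrophic factor, was bright throughout, at 9.27, 9.25 and 9.21 in knockdown samples, against 9.28, 8.90, 9.77 and 8.35 in control samples (0.17, SE 0.31). Without control replicate 4, the lowest, Cntfr differed by -0.073. The cytokine gene Osm differed by 0.89 (SE 0.54), which rested on knockdown replicate 1 (6.44, against 3.87 to 4.90 on the other arrays). Its receptor Osmr differed by 0.37 (SE 0.21), Il11 by -0.15 and Ctf1 by -0.12 (-0.075 without control replicate 4).

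Below the receptor, 13 genes of JAK and STAT signalling were measured, with 7 higher and 6 lower in knockdown samples (median 0.010, and 0.045 without control replicate 4) and 0 past the test or an unadjusted p under 0.05. The genes with the smallest p were Pias1, an inhibitor of activated STAT proteins (-0.42, SE 0.20), the phosphatase gene Ptpn2 (-0.57, SE 0.26), Stat5b (0.17, SE 0.12) and Ptpn11 (-0.26, SE 0.23). The level of Ptpn2 was 7.19, 7.41 and 6.28 in knockdown samples, against 7.51, 7.57, 7.67 and 7.36 in control samples, so knockdown replicate 3 set most of that difference.

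The 19 target and feedback genes of STAT3 went both ways as well, 9 higher and 10 lower (median -0.013, and -0.023 without control replicate 4). None passed the test over all genes by limma, and at an unadjusted p under 0.05 there were 2, both lower, where 3.61% of all genes were lower. Socs3, the main feedback inhibitor of gp130, was level, at 6.23, 6.20 and 6.20 in knockdown samples, against 6.55, 5.91, 6.02 and 6.26 in control samples (0.024, SE 0.16, 95% interval -0.36 to 0.41, and 0.049 without control replicate 4). The 2 genes with the smallest p, whose groups did not overlap (3.07% of all genes did so in this direction), were Socs2 and the kinase gene Pim3. Socs2, an inhibitor of cytokine and growth hormone signalling, was at 4.12, 6.14 and 5.96 in knockdown samples, against 6.74, 6.50, 6.46 and 6.81 in control samples (-1.22, SE 0.46), with knockdown replicate 1 far below the rest. Pim3 was at 5.97, 5.71 and 5.72 in knockdown samples, against 6.04, 6.14, 6.00 and 6.30 in control samples (-0.32, SE 0.12). The Notch effector Hes1 differed by -0.45 (SE 0.23) and the protease inhibitor gene Timp1 by 0.30 (SE 0.15).

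STAT proteins bind the palindrome TTCNNNGAA, which was searched in the RefSeq promoters of the members (GRCm38.p6, 250 bases before to 50 after each start site; as a palindrome it reads alike on both strands). All 10 genes matched, with 15 promoters. The motif was found in 2 of these 15 promoters, where 8.3% of all 32851 promoters held it. Counted by gene, 2 of the 10 had it in at least 1 promoter, where 9.55% of all 27025 genes did. The matches are shown, with Socs3 beside them as the feedback gene of the pathway, because Stat3 and its receptor chains are among the members. The capitals mark the motif, each sequence runs 5′ to 3′ on the gene's strand, and a match is a description of the letters and not evidence of binding.
Acsbg1: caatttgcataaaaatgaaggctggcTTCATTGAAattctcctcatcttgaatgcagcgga
Moxd1: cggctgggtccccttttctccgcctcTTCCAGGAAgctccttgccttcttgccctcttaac
Socs3: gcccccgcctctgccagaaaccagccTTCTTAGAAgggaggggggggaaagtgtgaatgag
The windows lie at chr9:54661877-54661937 (minus strand), chr10:24223341-24223401 (plus strand) and chr11:117969486-117969546 (minus strand), and the motif starts 26, 150 and 154 bases upstream of the start site. The 3 genes with a match differed between the groups by 0.049 (Acsbg1), -0.052 (Moxd1) and 0.024 (Socs3).

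Partners of Ptprz1 and tenascin, namely growth factors, adhesion molecules, proteoglycans and integrins, were all measured (22 of 22), with 15 higher and 7 lower in knockdown samples (median 0.095), where 49.8% of all genes were higher. None passed the test over all genes by limma. At an unadjusted p under 0.05, 1 was higher and 1 lower, beside 2.2% and 3.61% of all genes. Ptn, pleiotrophin, the best known ligand of Ptprz1, had log2 levels of 10.5, 10.7 and 10.5 in knockdown samples, against 10.1, 10.8, 10.5 and 10.4 in control samples (0.095, SE 0.18). Its relative Mdk, midkine, differed by -0.15 (SE 0.15). The knockdown values of Ptn lay within the control range, and those of Mdk reached below it in replicate 3 (9.56). Cntn2, a contactin of axons, was at 6.09, 6.26 and 7.42 in knockdown samples, against 7.36, 7.40, 8.74 and 7.91 in control samples (-1.26, SE 0.43). The scaffold gene Magi3 differed by 0.49 (SE 0.19), the integrin subunit gene Itgav by 0.31 (SE 0.17) and the scaffold gene Dlg4 by 0.25 (SE 0.15).

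Of the PDGF family, 7 genes were measured beside Pdgfd, 5 higher and 2 lower in knockdown samples (4 and 3 without control replicate 4). None passed the test, and 1 was lower at an unadjusted p under 0.05, beside 3.61% of all genes. The receptor of the Pdgfd product, Pdgfrb, was at 6.07, 5.05 and 4.43 in knockdown samples, against 4.35, 4.16, 4.36 and 4.96 in control samples (0.73, SE 0.38). It is also a marker of the mural cells of vessels and is itself 1 of the 16 endothelial and mural markers. Its highest arrays, knockdown replicates 1 and 2 and control replicate 4, were also those with the highest mean over these 16, Pdgfrb included. The part of vessel cells in this difference was not tested. Of those markers 14 were higher and 2 lower in knockdown samples (median 0.79), and 0 passed the test. Without control replicate 4 these became 16 higher and 0 lower, with a median of 1.17. Their mean level ranged from 4.85 to 6.64 in knockdown samples. It was 6.16 in control replicate 4 and 4.34 to 4.52 in the other controls, so the ranges overlapped through that array. Pdgfra differed by 0.14 (SE 0.12) and Pdgfb, an endothelial ligand, by 0.50 (SE 0.46), and by 0.88 without control replicate 4. The co-receptor Nrp1 had the smallest p of this list, at 7.05, 6.94 and 6.23 in knockdown samples, against 7.99, 7.596, 8.09 and 8.78 in control samples (-1.37, SE 0.31, adjusted p = 0.825 by limma). Its groups did not overlap, as for 3.07% of all genes in this direction.

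**Figure D4:**
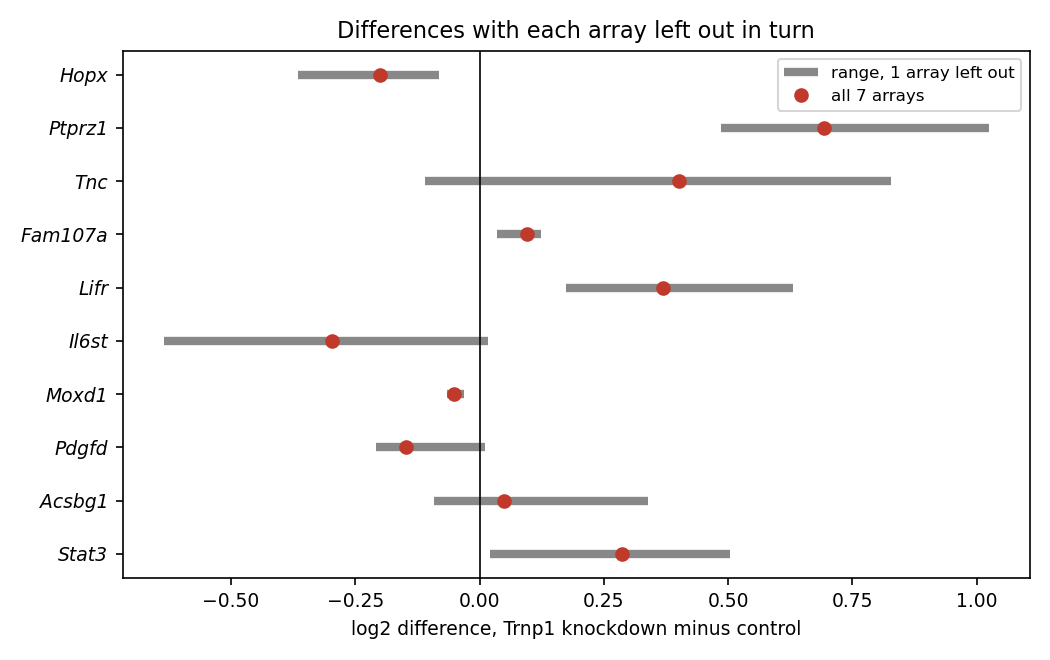
Range of each gene's difference (horizontal axis, log2 units, Trnp1 knockdown minus control) when each of the 7 arrays was left out in turn, as a grey bar, with the difference over all arrays as a point. The bars of Tnc, Il6st, Pdgfd and Acsbg1 cross 0, and that of Ptprz1 runs from 0.49 to 1.02.

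The genes whose pattern over the 7 arrays was most like that of a member were named for 3 members, by the root mean square difference of mean-centred log2 levels among all genes. For Hopx they were Foxred1, Klhl12 and Ifi214, at 0.086 to 0.094 log2 units, where the median gene was at 0.361. For Ptprz1 they were Haus6, Tox and Cdk10, at 0.2504 to 0.2652, where the median gene was at 0.622. For Tnc no gene came closer than 0.442 (Abhd6, then Haus5 and Them4 at 0.529), where the median gene was at 0.918. These distances depend on the spread of the member itself, with an SD over the 7 arrays of 0.317 for Hopx, 0.634 for Ptprz1 and 0.968 for Tnc. They therefore cannot be compared between the members.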

How the data were processed

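Total RNA of sorted cells was labelled after whole-transcriptome amplification, per the labels' protocols, and hybridised to 1 array per sample. The deposited values are log2 signals. The submitters' processing notes name RMA and Affymetrix Expression Console 1.2. RMA adjusts for background, applies quantile normalization and combines the probes of a set. For the authors' annotation no genome build is given in the sources used here.

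Of 35556 probe sets, 21789 had 1 gene symbol in the platform annotation, 1621 several and 12146 none. Symbols were updated through a RefSeq table of GRCm38.p6 (21698 matched). Each gene was represented by its probe set with the highest mean, which gave 19938 genes. No 2 arrays were identical, and their correlations over probe sets lay between 0.937 and 0.976. Precision is limited by how few arrays there are.

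Trnp1 knockdown minus control was fitted over all genes and 7 arrays with limma 3.58.1 in R 4.3.3, without covariates (two-sided, residual df 5, prior df 2.36). Benjamini-Hochberg adjustment ran over the 19938 genes, the threshold was 0.05, and intervals are limma's 95% intervals. On simulated data with the means and spreads of these 19938 genes, 200 of them changed, the fit recovered 48.6% of the genes shifted by 1 log2 unit, 84.4% of the genes shifted by 2, and made 8 false calls per run on average. On the real arrays the fit called 0 genes. The recovered shares are over genes of all spreads and were not computed for the members. The median residual SD was 0.482 over the members and 0.234 over all genes, so the shares do not hold for the members.

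The 10 genes and the 15 other lists were chosen from general knowledge with earlier results of these data known. Lists are described by counts and medians. From each list around the members the text names up to 4 genes with the smallest p and direct partners of the members, and for Hopx, Ptprz1 and Tnc the 3 genes of most like pattern. The alternatives were array weights, a robust or intensity-dependent prior, 3 normalizations, filters on dim genes, other uses of probe sets, a replicate block, left-out arrays and a threshold of 0.1.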

Additional observations from a re-analysis of the deposited data

Results flagged for a closer look

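Fam107a and Pdgfd each had 1 control value far from the other 3, both in control replicate 4. The gap of Fam107a in that array (3.63, against 3.85 to 3.89 in the other controls) was 0.838 of the range of the 4 controls. The gap of Pdgfd (3.72, against 3.06 to 3.13 in the other controls) was 0.897 of the range. Chance alone gives so large a share in about 1 of 20 groups. These were 2 of the 11 genes examined, the members and Trnp1, and over all genes 10.4% of genes had a control that far from the others. Without control replicate 4 Fam107a differed by 0.035 and Pdgfd by 0.011, knockdown minus control.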

How the results depend on the processing

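No gene passed at an adjusted p under 0.05 or under 0.1 in any alternative run, in either direction. Over 184 values of members under alternatives, 0 passed, the smallest adjusted p was 0.579, and 16 changed sign. An unadjusted p under 0.05 by limma was reached by 4 of the 184, where 5.81% of all genes reached it in the main fit. They were Ptprz1 after cyclic loess normalization (0.82) and without control replicate 2 (1.02), Acsbg1 without control replicate 2, and Lifr without control replicate 4. The shares of all genes in those settings are not given here. Hopx, Ptprz1, Lifr, Moxd1 and Stat3 kept their direction wherever they were fitted. Acsbg1 changed to -0.083 with array weights, -0.057 with equal array medians, -0.092 with the replicate number as a block and -0.17 when both control replicate 4 and knockdown replicate 3 were left out. With 1 array left out it ranged from -0.092 to 0.34, Tnc from -0.11 to 0.83, Il6st from -0.64 to 0.017 and Pdgfd from -0.21 to 0.011. Without the same 2 arrays Tnc was -0.028, Il6st 0.23 and Pdgfd 0.070. Pdgfd was 0.011 with the replicate block, in which control replicate 4 has no partner and so adds nothing, and the block called 0 genes. The labels do not say that replicate numbers pair the samples, and the deviations of same-numbered samples correlated by only 0.0278, -0.0507 and 0.0716 over genes. Fam107a was -0.011 with equal array medians, where the median of all genes was -0.107, so that it lay above that median. In that setting the medians of the members (-0.034), the JAK and STAT genes (-0.096) and the Ptprz1 and tenascin partners (-0.011) also turned below 0. They too lay above the median of all genes. The causes of these sign changes were not tested. The counts at an unadjusted p under 0.05 were 439 (higher in knockdown samples) and 719 (lower), but 183 and 1507 with equal array medians, 182 and 477 without the dimmest 50%, 882 and 1522 without knockdown replicate 2, and 800 and 541 without both arrays. Leaving out knockdown replicate 1 gave 469 lower, and leaving out knockdown replicate 3 gave 476. Filters on dim genes removed Pdgfd and Moxd1 at 25% and also Lifr and Fam107a at 50%, so these have no value there. Dim probe sets limit what can be seen of those 4 genes.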

Other observations

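Markers of later glia and of the tissue around the cortex were read as well, and the genes named here were chosen after their values were seen. Of 12 markers of astrocytes and oligodendrocyte precursors, 5 were higher and 7 lower in knockdown samples (median -0.0056), and 0 passed the test over all genes by limma. Without control replicate 4 these became 7 higher and 5 lower, with a median of 0.043. Slc1a2, a glutamate transporter of astrocytes that some progenitors and neurons also express, was the one at an unadjusted p under 0.05. It was higher, beside 2.2% of all genes. Its log2 levels were 5.01, 5.61 and 7.02 in knockdown samples, against 4.83, 4.83, 4.47 and 4.58 in control samples (1.202, SE 0.43). Its groups did not overlap, as for 2.59% of all genes in this direction. The defining astrocyte marker Gfap was at 3.52, 3.32 and 3.16 in knockdown samples, against 3.44, 3.31, 3.31 and 3.31 in control samples.

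Of 12 markers of meninges and mesenchyme, 9 were higher and 3 lower in knockdown samples (median 0.14), or 11 and 1 without control replicate 4, and 0 passed. Some of them were high on 1 array: Ogn was at 7.47 in control replicate 4 and between 2.77 and 3.76 on the other arrays, and Dcn at 6.38 in knockdown replicate 2 and between 4.33 and 4.95 on the others. In control replicate 4 the basal radial glia gene Lgals3bp was at 9.71, against 5.44 to 7.30 in knockdown samples and 5.29 to 6.37 in the other controls. The organic anion transporter gene Slco1c1, also of the list of 17, was at 7.04 in that array. It was at 4.23 to 4.77 in knockdown samples and 3.80 to 4.01 in the other controls. Knockdown minus control was -0.20 for Lgals3bp and -0.17 for Slco1c1 over all arrays, and 0.79 and 0.61 without control replicate 4.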
